A study of Homo sapiens with 24 samples.

Results

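The genes described here encode the enzymes, transporters and control enzymes of glycolysis and of pyruvate use: 34 genes, chosen by name for their place in the pathway, of 27274 gene names on the array. They were printed on 42 of 34127 probes. For 31 of the 34 genes at least 1 probe was well above background on every array of at least 1 treatment, and these 31 were tested. The other 3, SLC2A3, PFKFB1 and FBP1, are given at the end of the account by what the arrays could show of them.

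Total RNA was measured on 24 one-colour Agilent whole human genome arrays. The cells were a stably transfected HCT-116 line, a human colorectal carcinoma line, carrying a Tet repressor and a doxycycline-inducible dominant-negative Tcf4 (DN-Tcf4), that is, a Tcf4 unable to bind beta-catenin, the activator of the Wnt pathway. All arrays came from 1 clone, so the untreated cells carry the construct too and nothing here separates a trait of the clone from one of HCT-116. Each of 6 experiments held 1 array of untreated cells (Ctl) and 1 array each of cells given sodium butyrate at 5 mM (NaB), doxycycline at 4 ug/ml (Doxy) or the 2 agents combined (DoxyNaB). The labels give a treatment time of 17.5 hr. In the methods doxycycline was added before butyrate, and that time is given for the joint treatment. NaB/Ctl and DoxyNaB/Doxy thus give the butyrate response without and with doxycycline, and the study asked how far that response depends on Wnt activity.

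Glycolysis splits glucose into pyruvate. Hexokinase traps the sugar, phosphofructokinase commits it, and pyruvate kinase closes the path. Pyruvate is then reduced to lactate by lactate dehydrogenase, oxidised by the mitochondrial pyruvate dehydrogenase complex, which its kinases switch off, or carboxylated to oxaloacetate by pyruvate carboxylase. Most steps have several isozymes with different tissue distributions. Colorectal cancer cells are known for a high glycolytic rate, whereas butyrate, an inhibitor of histone deacetylases, is also a mitochondrial fuel of the normal colonocyte.

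The arrays carried signs of the labelled cell type and of the construct. Of 10 epithelial colon markers, 7 were well above background on all 24 arrays, against 1 of 5 leukocyte (CD68), 0 of 6 fibroblast and 0 of 4 endothelial markers. EPCAM was well above background on 22 arrays, LGALS4 on 12 and VIL1 on 5, and of the endothelial markers CDH5 on 22. TCF7L2, the gene of Tcf4, was read by 3 tested probes. The probe nearest the 3' end of the gene had levels from -6.45 to -4.36 in Ctl (median -5.79), from -7.25 to -4.41 in Doxy (median -5.15), from -4.85 to -2.61 in NaB (median -3.65) and from -0.60 to 1.63 in DoxyNaB (median 0.59). It was well above background on 1 Ctl array, on 3 arrays each of Doxy and NaB, and on 6 of DoxyNaB. It therefore entered the tests through DoxyNaB alone, and the size of its difference in DoxyNaB/NaB, 4.46 (adjusted p = 1.77e-06, limma), rests on dim NaB values. The next probe, well above background on all arrays, rose by 2.96 (adjusted p = 3.68e-05), while in Doxy/Ctl neither differed (0.30 and -0.17, adjusted p = 0.861 and 0.921). The signal of these probes was thus higher with both agents, and no rise was measured with doxycycline alone. The third probe, in the 5' part of the gene, fell by 1.25 in DoxyNaB/NaB (adjusted p = 0.00568), and gene and construct cannot be told apart by probes that both share. One array of NaB (experiment 3) and one of DoxyNaB (experiment 2) had the highest negative control signals, 161 and 248.9 against 48.38 to 114.6 on the others.

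A level below is the log2 signal of a probe minus the 75th percentile of its array, so 0 is a bright probe and negative values are dimmer. A change is the log2 difference fitted by limma with the experiment as a block, which is the mean over the 6 experiments where no array is missing. It is given with its SD over the experiments, and a gene was called where limma's adjusted p, over all probes tested, was under 0.01. Levels of different genes come from different probes and are not set against each other. In these bulk RNA samples fewer cells of a kind and less RNA per cell cannot be told apart.

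The probes of 3 genes that carry the main results are shown, each of which reads without a stop codon in 1 of its forward frames, as coding sequence does. They are written 5' to 3' in the sense of the mRNA, with NCBI36 coordinates as the files give them: ENO1 at chr1:8846641-8846700 on the minus strand, PDK3 at chrX:24456129-24456188 on the plus strand and PGAM1 at chr10:99180167-99180226 on the plus strand. No part is singled out by capitals.
ENO1: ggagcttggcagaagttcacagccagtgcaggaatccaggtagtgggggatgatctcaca
PDK3: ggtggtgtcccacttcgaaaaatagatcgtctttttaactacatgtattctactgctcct
PGAM1: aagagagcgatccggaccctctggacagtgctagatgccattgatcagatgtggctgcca
The files list PGAM4, a near copy of PGAM1, as a second target of the PGAM1 probe, so the signal of both genes may enter it.

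Butyrate modulated 21 of the 31 genes in NaB/Ctl, 12 higher and 9 lower. That is 67.7%, beside 69.6% of all 15155 genes tested (40.6% higher and 29.0% lower), so the pathway was not singled out by how many of its genes moved. Changes above 2-fold were found in 5 of the 31, or 16.1%, beside 32.4% of all genes. The changes ran from -1.28 (PGAM1) to 2.94 (ALDOC), with a median of 0.11 beside 0.17 over all genes and a median size of 0.52 beside 0.68. With doxycycline, DoxyNaB/Doxy, 21 genes were called again, 11 higher and 10 lower (67.7%, beside 68.4% of all genes, 38.1% higher and 30.3% lower), and 8 of them exceeded 2-fold (25.8%, beside 31.2%). Of the 31 genes, 19 were called in both comparisons and all 19 in the same direction. The share of all genes called in both was not taken, so this is not read as a trait of the pathway. These counts depend on the scaling of the arrays. When each array was scaled to its median after a floor of 5, the median change of all probes moved from 0.171 to -0.58 in NaB/Ctl and from 0.103 to -0.456 in DoxyNaB/Doxy, and the calls became 2 higher and 14 lower in the former and 4 higher and 12 lower in the latter. The sign was the same under the 4 other scalings for 15 of the 21 genes in NaB/Ctl (6 higher, 9 lower) and for 18 of 21 in DoxyNaB/Doxy (8 higher, 10 lower). Directions are therefore relative to the 75th percentile of each array.

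**Figure D1:**
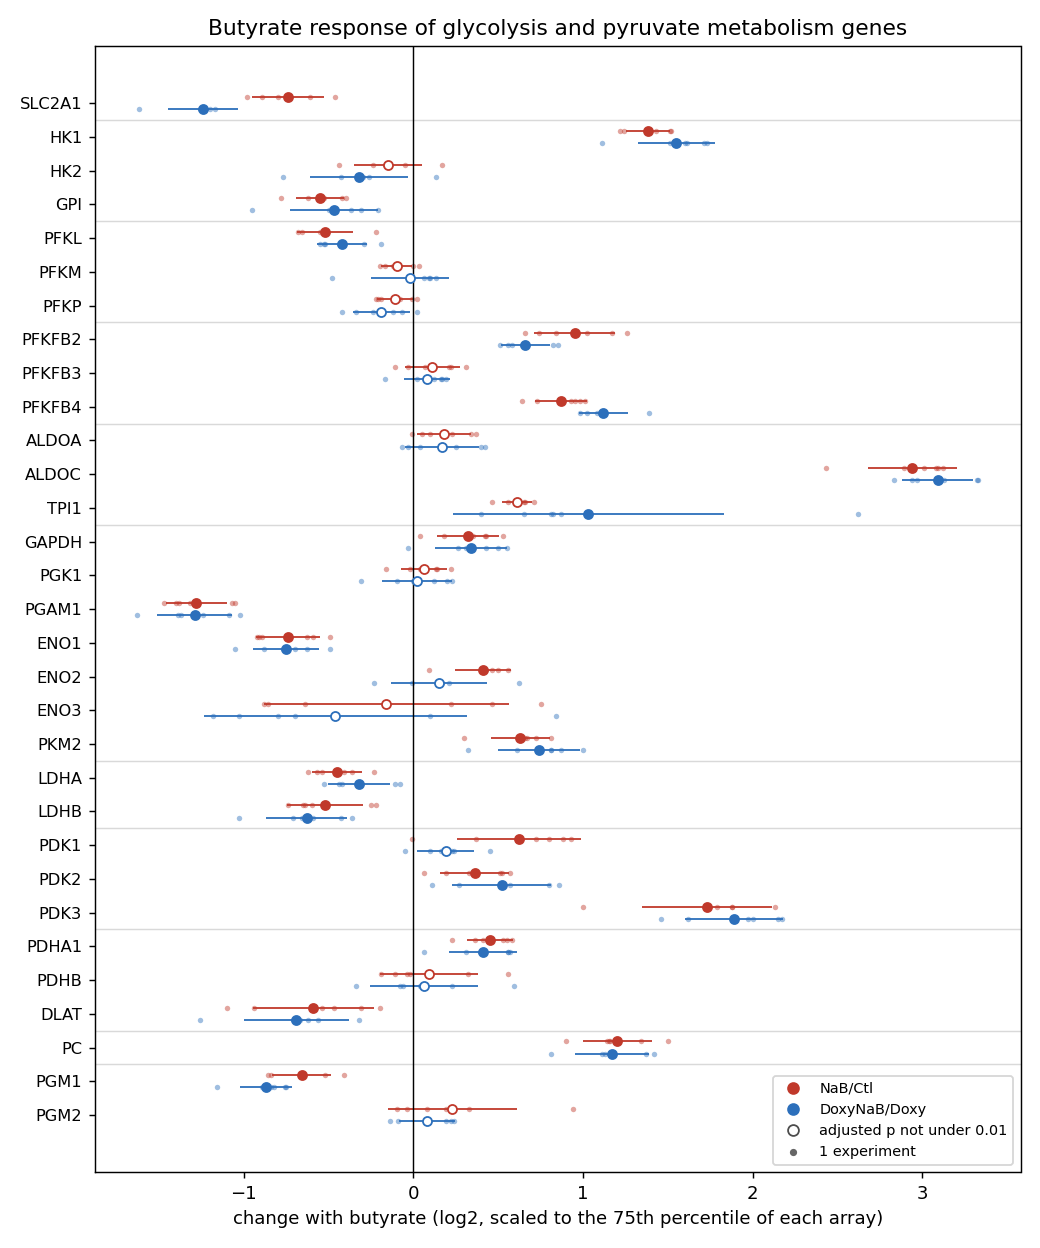
Change with butyrate (log2, x axis) of the 31 genes tested, in pathway order from top to bottom. Small points are single experiments, large points the fitted change, bars 1 SD over experiments, and open symbols changes with an adjusted p not under 0.01; ALDOC lies at 2.94 and 3.09, far to the right of all others, and PGAM1 at -1.28 and -1.29.

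Upstream, at glucose uptake, SLC2A1, the main glucose transporter of cancer cells, was lower with butyrate. Its levels in Ctl ran from 4.19 to 4.36 (median 4.31), and in NaB from 3.21 to 3.83 (median 3.47). In Doxy they ran from 4.06 to 4.56 (median 4.19), and in DoxyNaB from 2.57 to 3.37 (median 3.02). The butyrate arrays lay below the others in both comparisons, with no overlap. The fitted change was -0.74 (adjusted p = 1.82e-05, limma) in NaB/Ctl and -1.24 (adjusted p = 1.21e-07) in DoxyNaB/Doxy. In the 5 experiments with both arrays of NaB/Ctl it ran from -0.98 to -0.46, and in the 4 with both of DoxyNaB/Doxy from -1.62 to -1.17. The scanner software marked the spot as an outlier on 3 arrays, 1 each of NaB, Doxy and DoxyNaB, which the fit leaves out for this probe while it keeps their partners. In experiments 5 and 6 alone, where only experiment 6 had both arrays, the NaB/Ctl change was -0.66 and missed the threshold (adjusted p = 0.0278).

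The 2 hexokinases, which phosphorylate glucose, parted. HK1, the widely expressed form, ran from 0.21 to 0.97 in Ctl (median 0.45) and from 1.58 to 2.49 in NaB (median 1.82). With doxycycline it ran from 0.33 to 0.82 without butyrate (median 0.42) and from 1.54 to 2.53 with it (median 1.99). Every butyrate array lay above every array without butyrate. HK1 rose by 1.38 ± 0.13 (SD, n = 6, adjusted p = 4.25e-11, limma), or 2.61-fold, in NaB/Ctl, and by 1.55 ± 0.23 (adjusted p = 8.74e-12) in DoxyNaB/Doxy. With the floor scaling the NaB/Ctl change was 0.63 and missed the threshold (adjusted p = 0.0195). HK2, the form that many tumours induce, ran from 1.57 to 1.91 in Ctl (median 1.65) and from 1.42 to 1.75 in NaB (median 1.5), with overlap. Its change was -0.15 ± 0.20 (adjusted p = 0.163) in NaB/Ctl, or -0.90 (adjusted p = 0.00213) with the floor scaling. In DoxyNaB/Doxy it fell by 0.32 (adjusted p = 0.00484), a call lost without any of experiments 2 to 6 (adjusted p from 0.0133 to 0.0256) or without the 2 arrays of highest negative control signal (adjusted p = 0.0122), and a second, dimmer HK2 probe gave 0.55 (adjusted p = 0.0824) in NaB/Ctl. GPI, which turns glucose 6-phosphate into fructose 6-phosphate, fell in both comparisons, by 0.55 ± 0.14 (adjusted p = 4.79e-06) and 0.47 ± 0.26 (adjusted p = 2.95e-05), although normexp background correction left -0.29 (adjusted p = 0.055) in NaB/Ctl.

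At the committing step, 1 of 3 phosphofructokinase subunits was called. PFKL, the liver type, fell by 0.52 ± 0.16 (adjusted p = 4.80e-06, limma) in NaB/Ctl and by 0.42 ± 0.15 (adjusted p = 6.09e-05) in DoxyNaB/Doxy. Its range in NaB, from -0.49 to 0.23, touched that in Ctl, from 0.19 to 0.83. PFKM, the muscle type, changed by -0.10 ± 0.09 (adjusted p = 0.228) and PFKP, the platelet type, by -0.11 ± 0.11 (adjusted p = 0.122) in NaB/Ctl. With the floor scaling both were called, at -0.85 (adjusted p = 0.00225) and -0.86 (adjusted p = 0.00111). Of the bifunctional enzymes that make and degrade fructose 2,6-bisphosphate, the strongest activator of phosphofructokinase, PFKFB2 and PFKFB4 rose and PFKFB3 was split between probes. PFKFB2 ran from -2.16 to -1.70 in Ctl (median -1.92) and from -1.18 to -0.76 in NaB (median -0.98), without overlap. It rose by 0.95 ± 0.24 (adjusted p = 4.15e-09) in NaB/Ctl and by 0.66 ± 0.14 (adjusted p = 5.72e-07) in DoxyNaB/Doxy, calls that quantile normalization lost (0.55 and 0.21, adjusted p = 0.0156 and 0.323), as did the floor scaling (0.20 and 0.10). PFKFB4 ran from -1.13 to -0.03 in Ctl (median -0.99) and from -0.18 to 0.70 in NaB (median -0.05), where the ranges touch through the Ctl array of experiment 1. It rose in 6 of 6 experiments, by 0.87 ± 0.15 (adjusted p = 6.36e-09) in NaB/Ctl and by 1.12 ± 0.14 (adjusted p = 2.05e-10) in DoxyNaB/Doxy, calls that were lost with the floor scaling (0.12 and 0.56, adjusted p = 0.604 and 0.0206). The brighter PFKFB3 probe gave 0.11 ± 0.16 (adjusted p = 0.122) and the dimmer 0.67 ± 0.49 (adjusted p = 0.00449) in NaB/Ctl, so the response of PFKFB3 is not settled.

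ALDOC gave the largest change of the pathway in both comparisons. It encodes aldolase C, the brain form of the enzyme that cleaves fructose 1,6-bisphosphate into a pair of triose phosphates. Its level ran from -0.80 to 0.23 in Ctl (median -0.63) and from 2.27 to 3.31 in NaB (median 2.38). In Doxy it ran from -0.80 to -0.11 (median -0.60) and in DoxyNaB from 2.16 to 3.01 (median 2.55). Every array with butyrate stood well above every array without it. The change was 2.94 ± 0.26 (SD, n = 6), or 7.65-fold (adjusted p = 6.26e-14, limma), and 3.09 ± 0.21, or 8.49-fold (adjusted p = 2.99e-14). Its main counterpart ALDOA, the ubiquitous aldolase, ran from 5.18 to 5.45 in Ctl (median 5.38) and from 5.31 to 5.82 in NaB (median 5.49). ALDOA changed by 0.18 ± 0.16 (adjusted p = 0.0354) and 0.17 ± 0.22 (adjusted p = 0.0473), and did not pass. TPI1, which interconverts the triose phosphates, was higher by 0.61 ± 0.09 in NaB/Ctl in 6 of 6 experiments but missed the threshold (adjusted p = 0.0152). It rose by 1.03 ± 0.80 (adjusted p = 0.000291) in DoxyNaB/Doxy, or 0.47 (adjusted p = 0.166) with the floor scaling. The Doxy array of experiment 1 lay at 3.79, against 5.08 to 5.33 on the other Doxy arrays, and without experiment 1 the changes were 0.59 (adjusted p = 3.32e-06) and 0.71 (adjusted p = 4.55e-07), so that TPI1 was then called in both.

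**Figure D2:**
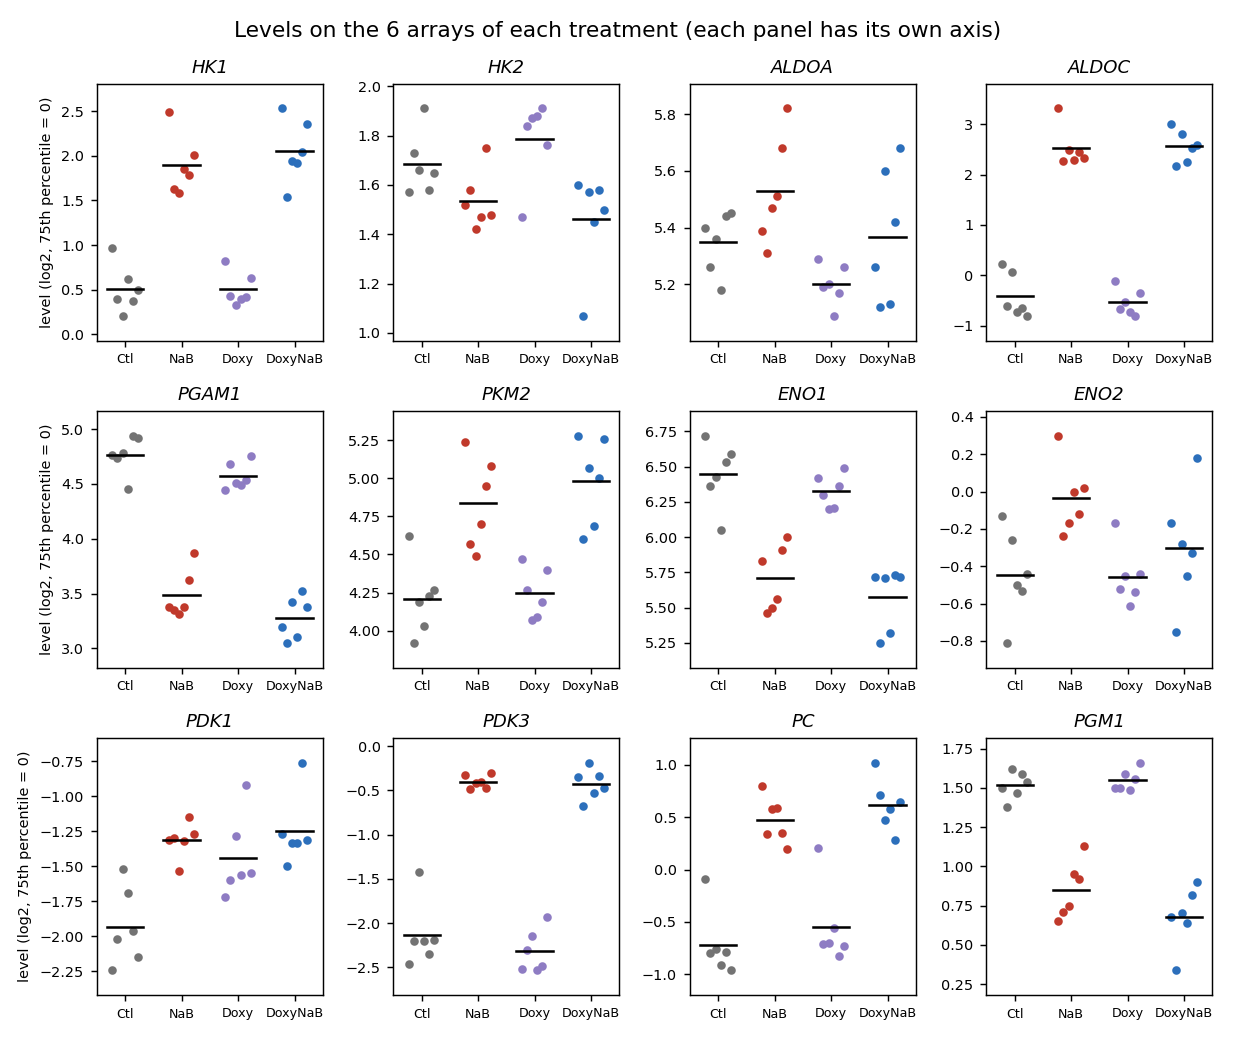
Level (log2, 0 = 75th percentile of the array) of 12 genes on the 6 arrays of each treatment. Points are arrays and lines are means, and the panels have separate axes. HK1, ALDOC and PDK3 separate the butyrate arrays upward and PGAM1, ENO1 and PGM1 downward, while HK2 and ALDOA overlap between NaB and Ctl. PC separates them upward within each comparison, although its lowest NaB array (0.20) lies just below its highest Doxy array (0.21).

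The later steps of the path held both risers and fallers. PGAM1, the phosphoglycerate mutase of most tissues, fell the most. It ran from 4.45 to 4.94 in Ctl (median 4.77) and from 3.31 to 3.87 in NaB (median 3.38), and from 4.44 to 4.75 in Doxy (median 4.53) and from 3.05 to 3.52 in DoxyNaB (median 3.29). The ranges did not overlap in either comparison. The change was -1.28 ± 0.18 (SD, n = 6, adjusted p = 6.27e-11, limma) in NaB/Ctl, 2.43-fold lower, and -1.29 ± 0.22 (adjusted p = 5.56e-11) in DoxyNaB/Doxy. A second PGAM1 probe also gave -1.28 in NaB/Ctl (adjusted p = 2.06e-11). ENO1, the ubiquitous enolase, ran from 6.05 to 6.72 in Ctl (median 6.48) and from 5.46 to 6.00 in NaB (median 5.70). It fell by 0.74 ± 0.19 (adjusted p = 6.72e-08) in NaB/Ctl and by 0.75 ± 0.20 (adjusted p = 4.96e-08) in DoxyNaB/Doxy, again without overlap. The neuronal enolase ENO2 ran from -0.81 to -0.13 in Ctl (median -0.47) and from -0.24 to 0.30 in NaB (median -0.06). ENO2 rose by 0.41 ± 0.17 (adjusted p = 0.000502) in NaB/Ctl, or stood at -0.34 with the floor scaling, and stood at 0.15 ± 0.28 (adjusted p = 0.134) in DoxyNaB/Doxy. The muscle enolase ENO3 varied in NaB/Ctl from -0.88 to 0.75, above 0 in experiments 2 to 4, which were scanned together, and below 0 in 1, 5 and 6. It did not pass (adjusted p = 0.587), except with the floor scaling (-0.91, adjusted p = 5.70e-05) and in experiments 5 and 6 alone (-0.75, adjusted p = 0.00273). In DoxyNaB/Doxy it changed by -0.46 ± 0.78 (adjusted p = 0.11), and by -0.92 (adjusted p = 0.00121) in experiments 5 and 6 alone. ENO3 was also called there with the floor scaling (-1.02, adjusted p = 1.5e-05, limma). Without the 2 arrays of highest negative control signal it was called as well (-0.65, adjusted p = 0.00867, limma).

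PKM2, the files' symbol for the pyruvate kinase gene now named PKM, went the other way from ENO1. Whether its probe separates the splice forms was not tested. It ran from 3.92 to 4.62 in Ctl (median 4.21) and from 4.49 to 5.24 in NaB (median 4.82). It rose by 0.63 ± 0.18 (SD, n = 6, adjusted p = 1.73e-06, limma) in NaB/Ctl, where the ranges overlapped and the floor scaling gave -0.12, and by 0.74 ± 0.24 (adjusted p = 2.45e-07) in DoxyNaB/Doxy, where they did not and the floor scaling gave 0.18. GAPDH, the glyceraldehyde phosphate dehydrogenase often used as a reference gene, rose by 0.32 ± 0.18 (adjusted p = 0.00152) and 0.34 ± 0.21 (adjusted p = 0.00109), but with the floor scaling stood at -0.43 and -0.22. The GAPDH call in NaB/Ctl was lost without experiment 4 (adjusted p = 0.0111) or 6 (adjusted p = 0.0105). PGK1, phosphoglycerate kinase, changed by 0.06 ± 0.13 (adjusted p = 0.453) and 0.02 ± 0.20 (adjusted p = 0.783), and was called in NaB/Ctl at 0.16 with quantile normalization and at -0.69 with the floor scaling. GAPDH and LDHA have processed copies elsewhere in the genome, so their values are less certain, and the files place the second LDHA probe on chromosome 9, not at the gene on chromosome 11.

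Both lactate dehydrogenase subunits fell. LDHA, the subunit that favours lactate formation, ran from 5.27 to 5.53 in Ctl (median 5.38) and from 4.73 to 5.31 in NaB (median 4.86). LDHB, the subunit that favours lactate oxidation, ran from 6.05 to 6.38 in Ctl (median 6.14) and from 5.40 to 6.16 in NaB (median 5.56). In NaB/Ctl LDHA changed by -0.45 ± 0.15 (SD, n = 6, adjusted p = 7.69e-06, limma) and LDHB by -0.52 ± 0.22 (adjusted p = 3.64e-05). One NaB array of each reached into the Ctl range. In DoxyNaB/Doxy the changes were -0.32 ± 0.18 (adjusted p = 0.00035) and -0.63 ± 0.24 (adjusted p = 3.60e-06), without overlap. The second probe of each gene also fell in NaB/Ctl, by 0.43 and 0.65. With the mean over probes LDHB missed the threshold in both (-0.32 and -0.31, adjusted p = 0.267 and 0.283). The dimmer LDHB probe had values on only 5 NaB and 4 DoxyNaB arrays. On arrays without it that mean is the level of the brighter probe alone, so this setting does not measure the LDHB fall. With normexp LDHA missed the threshold in NaB/Ctl (-0.33, adjusted p = 0.036).

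The 3 pyruvate dehydrogenase kinases, which switch the complex off, were called higher in 3 of 3 in NaB/Ctl, beside 40.6% of all genes, and in 2 of 3 in DoxyNaB/Doxy, although PDK1 and PDK2 stood at -0.13 and -0.39 with the floor scaling. PDK3 moved the most. It ran from -2.46 to -1.42 in Ctl (median -2.20) and from -0.49 to -0.30 in NaB (median -0.42), and from -2.53 to -1.93 in Doxy (median -2.40) and from -0.68 to -0.19 in DoxyNaB (median -0.41). The butyrate arrays held the narrower ranges and did not overlap with the rest. PDK3 rose by 1.73 ± 0.38 (SD, n = 6, adjusted p = 2.67e-10, limma), 3.32-fold, and by 1.89 ± 0.29 (adjusted p = 7.68e-11), 3.72-fold. PDK1 ran from -2.24 to -1.52 in Ctl (median -1.99) and from -1.53 to -1.15 in NaB (median -1.31). It rose by 0.62 ± 0.37 (adjusted p = 0.000147) in NaB/Ctl but stood at 0.19 ± 0.17 (adjusted p = 0.164) in DoxyNaB/Doxy, and quantile normalization took the NaB/Ctl change to 0.02 (adjusted p = 0.966). PDK2 rose by 0.36 ± 0.21 (adjusted p = 0.00435) and 0.52 ± 0.29 (adjusted p = 0.000205), and its NaB/Ctl call was lost without experiment 1, 3 or 6 in turn.

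Within the complex, PDHA1, the alpha subunit of its first enzyme and the target of the kinases, rose by 0.45 ± 0.13 (SD, n = 6, adjusted p = 1e-05, limma) in NaB/Ctl and by 0.41 ± 0.20 (adjusted p = 2.89e-05) in DoxyNaB/Doxy, but stood at -0.30 and -0.15 with the floor scaling. PDHB, the beta subunit, changed by 0.09 ± 0.29 (adjusted p = 0.476). DLAT, the acetyltransferase core, fell by 0.59 ± 0.36 (adjusted p = 0.000367) and 0.69 ± 0.31 (adjusted p = 8.30e-05), or by 0.93 and 1.19 with quantile normalization, where both missed the threshold (adjusted p = 0.0426 and 0.0121). PC, pyruvate carboxylase, which feeds oxaloacetate to the citric acid cycle and to gluconeogenesis, ran from -0.96 to -0.09 in Ctl (median -0.80) and from 0.20 to 0.80 in NaB (median 0.46). It rose by 1.20 ± 0.21 (adjusted p = 1.10e-09), 2.29-fold, and by 1.17 ± 0.22 (adjusted p = 1.55e-09), with no overlap in either. With the floor scaling the NaB/Ctl change of PC was 0.45 (adjusted p = 0.0266). Of the 2 genes named as phosphoglucomutases, PGM1, which links glucose 6-phosphate to glycogen, fell and PGM2 did not pass. PGM1 ran from 1.38 to 1.62 in Ctl (median 1.52) and from 0.65 to 1.13 in NaB (median 0.84), and fell by 0.66 ± 0.18 (adjusted p = 4.33e-08) and 0.87 ± 0.15 (adjusted p = 1.10e-09). PGM2 ran from 0.56 to 1.48 in Ctl and from 1.19 to 1.61 in NaB, and changed by 0.23 ± 0.38 (adjusted p = 0.0481).

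Isozymes, subunits or related enzymes were compared in pairs within experiments. There were 13 pairs in both responses, giving 26 tests by a two-sided exact sign-flip permutation test over the 6 experiments. A pair of SLC2A1 and SLC2A3 could not be formed. The pairs were chosen with earlier results of these data known. The smallest p this design allows is 0.0312, reached by 18 of the 26 tests, for which the Benjamini-Hochberg adjusted p was 0.0451. That adjusted p depends only on how many of the chosen tests reach the smallest p, so passing is no independent support. In 8 pairs both responses passed. HK1 exceeded HK2 by 1.53 ± 0.17 (SD) in NaB/Ctl and by 1.87 ± 0.15 in DoxyNaB/Doxy, in 6 of 6 experiments each. ALDOC exceeded ALDOA (ALDOA minus ALDOC -2.75 ± 0.25 and -2.92 ± 0.22), and ENO2 exceeded ENO1 (ENO1 minus ENO2 -1.14 ± 0.20 and -0.91 ± 0.27). PDK3 exceeded PDK1 (PDK1 minus PDK3 -1.12 ± 0.16 and -1.71 ± 0.30). The control enzymes PFKFB2 and PFKFB4 each exceeded PFKFB3, by 0.84 ± 0.29 for PFKFB2 minus PFKFB3 and by -0.76 ± 0.20 for PFKFB3 minus PFKFB4 in NaB/Ctl, as read by the brighter PFKFB3 probe. PFKL fell further than PFKP (-0.41 ± 0.14) and PGM1 further than PGM2 (-0.90 ± 0.47). LDHA and LDHB differed by 0.06 ± 0.14 in NaB/Ctl, with experiments from -0.19 to 0.24 (exact p = 0.312), but by 0.31 ± 0.11 in DoxyNaB/Doxy, where LDHB was the lower in 6 of 6. With normexp background correction 14 tests, and with the mean over a gene's probes 15, reached the smallest p. Since the adjustment then gave 0.0580 and 0.0542, no pair passed under these settings, while 25 and 23 of the 26 differences had the same sign. For LDHB and PFKP the mean over probes also takes in arrays that lack the dimmer probe.

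**Figure D3:**
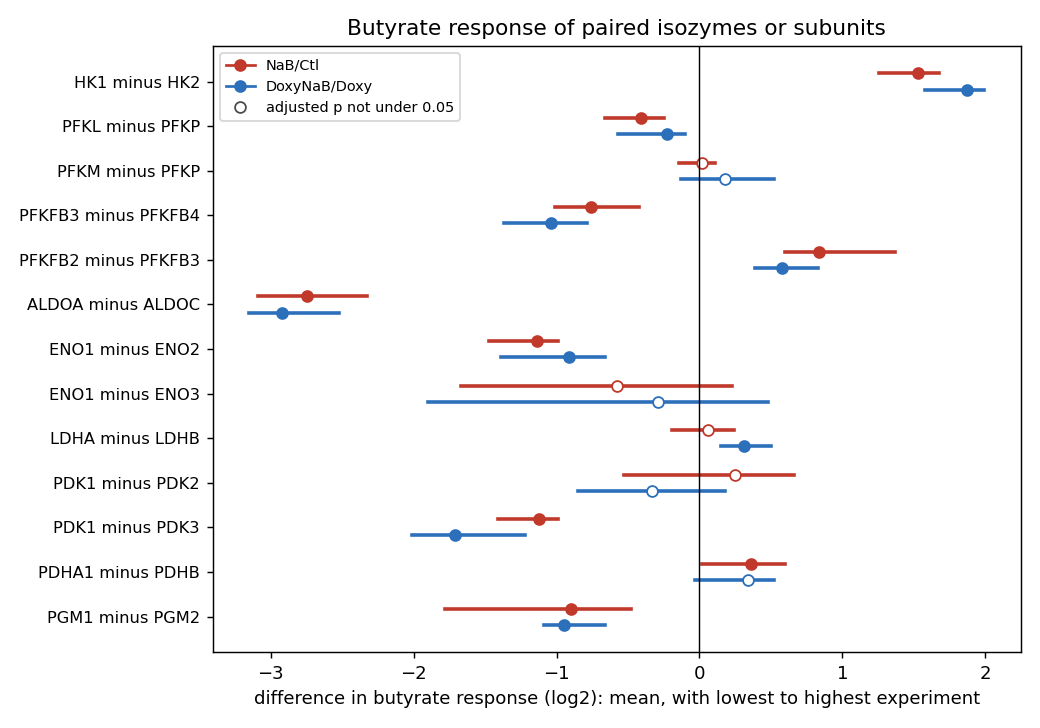
Difference in butyrate response (log2) between 2 isozymes or subunits, first gene minus second. Points are means over 6 experiments, lines run from the lowest to the highest experiment and open symbols have an adjusted p not under 0.05; the line of ALDOA minus ALDOC is farthest from 0, from -3.09 to -2.33 in NaB/Ctl.

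Doxycycline by itself changed none of the 31 genes in Doxy/Ctl by limma (0.554% of all genes were called), with 5 at an unadjusted p under 0.05 and 2 at an unadjusted p under 0.01 by the methods' paired t-test. PDK1 came nearest, at 0.49 ± 0.32 (SD, n = 6, adjusted p = 0.0534). As shown above, no rise of TCF7L2 signal was measured on these arrays. DoxyNaB/NaB, where 2 of its 3 probes were higher, also gave 0 of 31 (2.72% of all genes were called), with 7 at an unadjusted p under 0.05 and 0 by the methods' t-test. SLC2A1 was nearest, with a fitted difference of -0.54 (adjusted p = 0.0137, 95% interval from -0.79 to -0.29) and from -0.90 to -0.29 in the 4 experiments with both arrays, and passed with quantile normalization (adjusted p = 0.00211) and with the filter on all 24 arrays (adjusted p = 0.0079). Leaving out single experiments gave adjusted p of 0.0292 or more. PFKFB4 followed at 0.26 ± 0.18 (adjusted p = 0.058). Shares of all genes were taken for the adjusted threshold only, so the counts at an unadjusted p are not read as a trait of the pathway.

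The difference between the butyrate responses, NaB/Ctl minus DoxyNaB/Doxy, was also tested directly as an interaction. It passed in 0 of 31 genes by limma (1.36% of all genes were called), with 5 at an unadjusted p under 0.05 and 0 by the methods' t-test. The share of all genes at an unadjusted p under 0.05 was not taken here either. For the 5 genes that changed more than 2-fold in NaB/Ctl the intervals included 0. The difference was -0.15 for ALDOC (95% interval from -0.47 to 0.17), -0.16 for PDK3 (from -0.51 to 0.19), -0.17 for HK1 (from -0.41 to 0.08), 0.01 for PGAM1 (from -0.23 to 0.24) and 0.03 for PC (from -0.24 to 0.30). The widest gaps were in SLC2A1, at 0.51 (from 0.15 to 0.86, adjusted p = 0.17), and PDK1, at 0.43 (from 0.07 to 0.79, adjusted p = 0.285). Intervals also left out 0 for PFKFB2 (0.29, from 0.06 to 0.53, adjusted p = 0.263), PFKFB4 (-0.25, from -0.47 to -0.02, adjusted p = 0.349) and PGM1 (0.21, from 0.01 to 0.40, adjusted p = 0.379). Thus PDK1 and ENO2, called in NaB/Ctl only, and HK2 and TPI1, called in DoxyNaB/Doxy only, were not shown to differ between the responses. For ENO2, HK2 and TPI1 the differences were 0.26, 0.18 and -0.42 (adjusted p = 0.446, 0.671 and 0.654).

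Experiments 2 to 4 were scanned together, as were experiments 5 and 6. In experiments 2 to 4 alone the NaB/Ctl changes were 2.78 for ALDOC, 1.5 for PDK3, 1.28 for HK1, 1.33 for PC and -1.31 for PGAM1. In experiments 5 and 6 alone they were 3.1, 1.88, 1.47, 1.15 and -1.18, all of them called in both sets. Over the 31 genes, 17 were called in experiments 2 to 4 and 14 in experiments 5 and 6, with fewer arrays in each fit. Shares of all genes called are given for the main fit only, so these counts are not read as a trait of the pathway. In experiment 1 the 2 butyrate arrays shared a slide and a scan apart from the others, so slide, scan and butyrate cannot be told apart there. Without experiment 1, 21 genes were called in each comparison.

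Other genes of carbohydrate use, 86 tested of 113 on the array, were read from 7 lists that leave out the 34. In NaB/Ctl 67 of the 86 were called (77.9%, beside 69.6% of all genes), 45 higher and 22 lower, which became 15 higher and 28 lower with the median scaling after a floor. A probe could enter through 1 treatment alone, so genes dim in Ctl could enter because they were high with butyrate. With the filter on all 24 arrays 57 of 74 were called, 35 higher and 22 lower. The lean to higher calls, here and in the lists below, therefore rests partly on the filter. Among other hexose transporters and monocarboxylate carriers 7 of 10 rose and 0 fell (median 0.70 beside 0.17 over all genes), including BRP44L, now known as a subunit of the mitochondrial pyruvate carrier, at 1.05 ± 0.15 (SD, n = 6, adjusted p = 1.03e-09, limma), SLC16A4 at 1.86 ± 0.37, with 4 of 6 Ctl arrays well above background, and SLC2A6 at 0.94 ± 0.18. The other isozymes and bypass steps had 8 higher and 4 lower of 15. LDHD, which uses D-lactate, rose by 3.86 ± 0.17. For FBP2, the muscle fructose bisphosphatase, the fitted difference was 3.85 ± 0.91, but only 3 of the 6 Ctl arrays measured it well above background, so its size rests on dim Ctl values. GPD2, the mitochondrial glycerol phosphate dehydrogenase, fell by 2.42 ± 0.17, G6PC3 by 1.09 ± 0.42 and PGAM4 by 0.87 ± 0.43. PGAM4 is a near copy of PGAM1, and whether PGAM1 signal enters its value was not tested. Of 6 other pyruvate dehydrogenase complex genes PDK4, a further kinase, rose by 1.47 ± 0.59, while PDHX, which anchors a subunit, fell by 0.65 ± 0.16 and the phosphatase PDP1 by 0.60 ± 0.25.

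The background for the lists below was again 40.6% of all genes called higher and 29.0% lower. Around the pathway, 11 of 16 genes listed under glycogen metabolism rose and 3 fell. Among them were PYGM, muscle phosphorylase (2.02 ± 0.73), PGM2L1 (1.74 ± 0.49) and PGM5 (1.67 ± 1.42) on the higher side, and GBE1, the branching enzyme (-1.53 ± 0.14), PYGL, liver phosphorylase (-0.73 ± 0.11), and GYG1, glycogenin (-0.50 ± 0.17), on the lower. The pentose phosphate pathway had 3 higher and 6 lower of 11 (median -0.46). TKTL1, a transketolase relative, rose by 3.43 ± 0.46 and SHPK by 0.26 ± 0.19, whereas RPIA fell by 1.05 ± 0.10, PRPS1 by 0.97 ± 0.17 and PGLS by 0.66 ± 0.22. Hypoxia-responsive genes outside glycolysis had 11 higher and 1 lower of 15 (median 0.68), among them ANKRD37 (2.27 ± 1.04), EGLN3 (1.77 ± 0.93) and NDRG1 (1.61 ± 0.44), with ERO1L the one lower (-0.69 ± 0.13). Among the transcriptional regulators of glycolytic genes 4 of 13 rose and 6 fell. EPAS1, a hypoxia-inducible factor, rose by 1.76 ± 0.19, MAX by 0.76 ± 0.07 and HIF1AN by 0.58 ± 0.13, whereas HIF1A fell by 0.99 ± 0.41 and MYC by 0.85 ± 0.13. For PYGM, TKTL1 and EGLN3 only 3 of 6 Ctl arrays were well above background, so the sizes of their differences rest on dim Ctl values. In Doxy/Ctl 2 of the 86 genes were called (2.33%, beside 0.554% of all genes): DDIT4 and PCK2 rose, by 1.32 ± 0.24 and 1.25 ± 0.13. In DoxyNaB/NaB 4 were called (4.65%, beside 2.72%): BNIP3 rose by 0.63 ± 0.24 and DDIT4 by 0.74 ± 0.11, and PDP1 fell by 0.75 ± 0.19 and MYC by 1.52 ± 0.15. The interaction passed for MYC (1.60 ± 0.17, adjusted p = 2.14e-08, limma), PCK2 (1.10 ± 0.38, adjusted p = 0.000187) and PDP1 (0.92 ± 0.28, adjusted p = 0.000351), 3.49% of the 86 beside 1.36% of all genes.

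**Figure D4:**
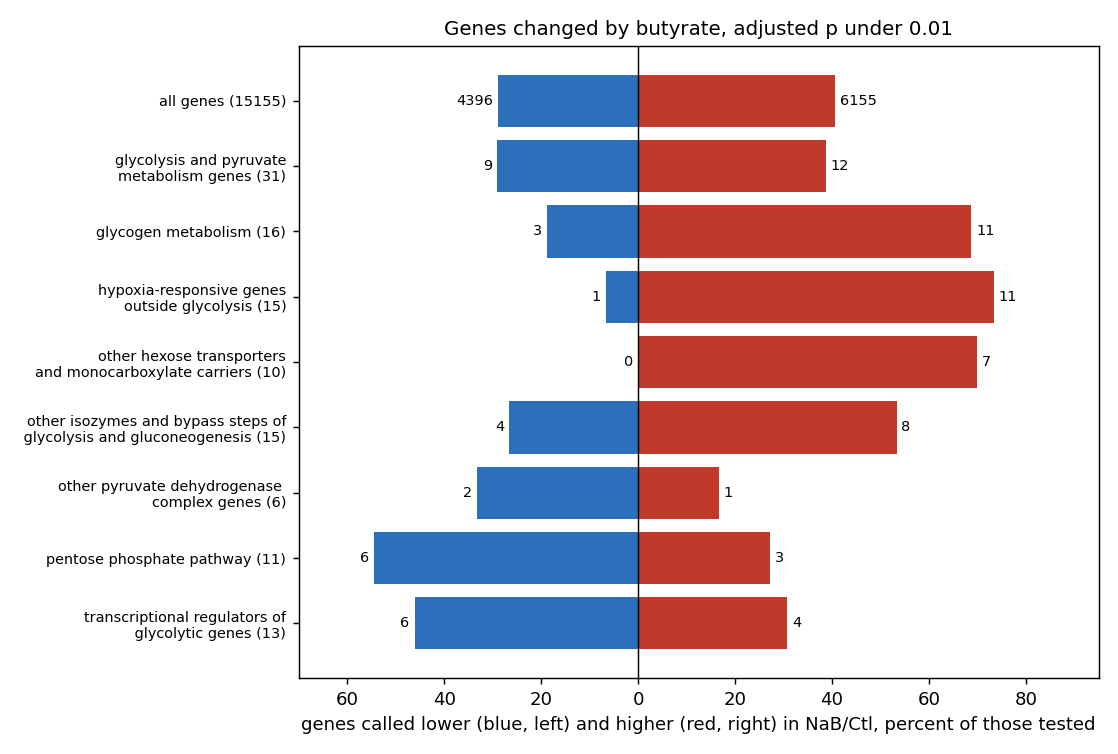
Share of the genes tested that were called higher (right) or lower (left) in NaB/Ctl, in percent of those tested, with counts at the bars and the number tested in brackets. The glycolysis and pyruvate metabolism genes (12 higher, 9 lower of 31) have bars like those of all genes, and the pentose phosphate pathway has its longer bar to the left (6 lower, 3 higher).

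Promoters of the pathway were searched for motifs of factors known to act there: ACGTG, the core that hypoxia-inducible factors bind, CACGTG, the E-box of MYC and MAX, which contains ACGTG, and CTTTGA, the core that Tcf factors bind, each on both strands. The windows are those of RefSeq on GRCh38.p14, from 250 bases before to 50 after each listed start, and 32 of the 34 genes had one (PKM2 through PKM). ACGTG stood in 20 of 32 genes, 62.5%, beside 24.9% of 27305 genes with a window, and in 21.4% of all 35116 windows. CACGTG stood in 9 of 32 (28.1%, beside 8.77%) and CTTTGA in 5 of 32 (15.6%, beside 15.5%). By response in NaB/Ctl, ACGTG was in 7 of 11 genes that rose, 4 of 9 that fell and 9 of 10 that were not called. A gene counts where any of its listed starts holds the motif, and a match is only a match of letters. A gene with several starts thus has more chances to count: HK1 and PFKM had 7 each, of which 0 and 2 held ACGTG. The share of windows was not taken for the members, so the gene shares do not allow for the number of starts. Windows of 4 genes are printed, 120 bases up to the start, for the 2 genes that rose the most and had 1 start and for PGAM1 and ENO1, which fell. Capitals mark the motif, which the latter 2 lack in this stretch.
ALDOC: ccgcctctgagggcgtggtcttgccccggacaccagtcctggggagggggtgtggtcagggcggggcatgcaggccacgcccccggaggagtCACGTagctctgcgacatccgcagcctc
PDK3: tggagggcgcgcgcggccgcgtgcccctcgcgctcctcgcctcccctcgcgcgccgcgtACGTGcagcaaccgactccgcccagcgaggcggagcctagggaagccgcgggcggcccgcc
PGAM1: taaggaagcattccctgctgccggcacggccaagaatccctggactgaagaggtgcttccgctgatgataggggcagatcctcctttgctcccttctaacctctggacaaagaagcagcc
ENO1: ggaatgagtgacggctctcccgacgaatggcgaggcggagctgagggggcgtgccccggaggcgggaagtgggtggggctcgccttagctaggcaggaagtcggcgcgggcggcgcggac
They lie at chr17:28576896-28577015 on the minus strand, chrX:24465166-24465285 and chr10:97427698-97427817 on the plus strand, and chr1:8878687-8878806 on the minus strand.

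The 3 genes that were not tested stood near background. SLC2A3, a high-affinity glucose transporter, ran on its brighter probe from -5.12 to -3.78 in Ctl and from -3.85 to -2.88 in NaB, with 4 and 5 of 6 arrays well above background. With doxycycline the order was not the same, from -5.73 to -4.05 in Doxy and from -5.14 to -3.88 in DoxyNaB. PFKFB1, the liver bifunctional enzyme, ran from -6.04 to -4.47 in Ctl and from -6.27 to -2.05 in NaB, with 3 and 4 arrays well above background. FBP1, the liver fructose bisphosphatase that reverses the phosphofructokinase step, ran from -7.39 to -4.54 in Ctl and from -6.60 to -2.21 in NaB, with 2 and 3 arrays well above background. The ranges of NaB and Ctl overlapped for each of these probes. Within experiments the brighter SLC2A3 probe was higher in NaB than in Ctl in 6 of 6, by 0.91 to 1.29, and DoxyNaB minus NaB ran from -1.95 to -1.01, with no overlap. The dimmer probe ran from -0.76 to 2.83 and from -3.14 to 0.59. Without the filter on dim probes SLC2A3 was called in DoxyNaB/NaB at -1.41 (adjusted p = 0.000135, limma), with 2 of 6 DoxyNaB arrays well above background.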

How the data were processed

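The deposited files, 1 per array, were Agilent Feature Extraction output (9.5.3.1, per the labels and file headers), and their intensity values were the processed signals that the authors' facility obtained from 1-colour scans, background-corrected by that software. Each array had 43118 non-control spots. Treatments and experiments came from the labels. The experiments are given as biological replicates of 1 clone.

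From these intensities, spots marked as outliers were dropped, spots of a probe averaged, log2 taken and the array's 75th percentile subtracted. Testing was limited to the 18984 probes that every array of some treatment measured well above background. limma 3.58.1 in R 4.3.3 fitted all 24 arrays with the experiment as a block, as the methods' paired test does, and p-values were adjusted (Benjamini-Hochberg) over all probes. Pairing was checked: deviations from the treatment means correlated above 0.1 in 35 of 36 same-experiment pairs (lowest -0.218, the others from 0.258 to 0.894), and experiments 2 to 6 each shared 1 slide. A gene was read by its brightest tested probe. The number of arrays limits the precision. The 75th percentile lay between 380.2 and 1323 and 52.7 to 88.1% of probes were well above background.

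The genes, lists, pairs and motifs were chosen with earlier results of these data known. Values are given in full for the 10 genes of largest NaB/Ctl change called with the same direction in 6 of 6 experiments, for isozyme pairs, and for up to 3 risers and 3 fallers per list, of which 3 genes are not reported here. SLC2A1, measured in fewer experiments, was added after its values were seen. Alternatives were 4 scalings, 2 filters, no block, slide as block, the compared arrays only, the methods' t-test, other thresholds, the mean over probes and each experiment left out.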

Additional observations from a re-analysis of the deposited data

Results flagged for a closer look

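Of 124 sets of arrays examined (31 genes, 4 treatments), 20 (16.1%) had an array standing apart from the other arrays of its treatment by Dixon's criterion, where chance marks about 1 in 20. Of the 20, 14 lay in experiment 1, 6 of them on its Doxy array and 4 each on its Ctl and NaB arrays. On the Doxy array of experiment 1 the levels were 1.47 for HK2, 4.55 for PFKP, -0.12 for PFKFB4, 3.79 for TPI1, 0.71 for PDK2 and 0.21 for PC. On its NaB array they were -0.49 for PFKL, 0.70 for PFKFB4, 3.31 for ALDOC and 6.45 for TPI1. On its Ctl array they were 1.10 for PFKFB3, 5.73 for TPI1, -0.09 for PC and 0.56 for PGM2. TPI1 stood apart on all 3 of these arrays, in opposite directions. The DoxyNaB array of experiment 2, which had the highest negative control signal, stood apart for HK2 (1.07) and DLAT (-1.81). The rest were GPI on Doxy of experiment 4 (4.75), LDHA on Doxy of experiment 6 (5.46), PDK1 on DoxyNaB of experiment 5 (-0.76) and PDK3 on Ctl of experiment 3 (-1.42). Without experiment 1, among the 31 genes, the NaB/Ctl call changed for TPI1, then called, and for PDK2, then lost.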

How the results depend on the processing

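With the median after a floor of 5, changes called higher turned negative in NaB/Ctl for GAPDH (-0.43), PKM2 (-0.12), PDHA1 (-0.30), PDK2 (-0.39), ENO2 (-0.34) and PDK1 (-0.13), and 5 genes not called before were called lower: PGK1 (-0.69), PFKP (-0.86), PFKM (-0.85), HK2 (-0.90) and ENO3 (-0.91). In DoxyNaB/Doxy changes called higher turned negative for GAPDH (-0.22), PDHA1 (-0.15) and PDK2 (-0.04). PFKP (-0.75) and ENO3 (-1.02), not called before, were called lower there. Related genes changed in NaB/Ctl then numbered 43. Asking for more than 2-fold left 5 of the 31 genes in NaB/Ctl, 8 in DoxyNaB/Doxy and 26 related genes. In DoxyNaB/NaB 1 gene was called with quantile normalization, with the filter on all 24 arrays and at an adjusted p under 0.05 (SLC2A1 each time), and 1 without a filter (SLC2A3). In Doxy/Ctl 2 passed the unadjusted threshold of the methods' t-test. Paired isozymes passed in 0 tests with normexp or the mean over probes. Left-out experiments were not run for the pairs, since 5 experiments cannot reach 0.05. Without the replicate block 19 genes were called in each butyrate response (10 higher, 9 lower), 51 related genes in NaB/Ctl, and 0 in the other comparisons. Leaving out each experiment gave 19 to 21 genes in NaB/Ctl, 20 to 21 in DoxyNaB/Doxy and 61 to 65 related genes. Counts under these other settings have no share of all genes beside them and are not read as a trait of these genes. The cause of these shifts was not tested. Dim probes limit SLC2A3, PFKFB1 and FBP1.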
